A study of Mus musculus with 8 samples.

Results

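Nkx genes encode homeodomain transcription factors of the NK class, and 6 of them were followed here in mouse MPNST, the malignant tumors of peripheral nerve that arise from the Schwann cell lineage. The 6 members, Nkx2-1, Nkx2-2, Nkx2-3, Nkx2-5, Nkx3-2 and Nkx6-1, were taken by gene symbol from a deposited table of 20943 genes, and all 6 were present. In PRC2 loss tumors 3 of the 6 rose, Nkx2-3, Nkx6-1 and Nkx2-1, and none fell past the test. Over all genes tested, 16% were called higher and 19.6% lower. Nkx2-2 was high in all 3 PRC2 loss tumors and in 1 wildtype tumor, Nkx2-5 was high in 1 PRC2 loss tumor, and Nkx3-2 was the only member with a lower mean in PRC2 loss.

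An Nkx protein binds DNA through its homeodomain and helps to set the identity of an organ or a cell type during embryonic development. Many members recruit co-repressors of the Groucho family and so silence the programs of neighboring territories. Developmental homeobox genes of this kind are a classic class of Polycomb targets, kept silent outside their own territory by Polycomb repressive complex 2 (PRC2), which methylates histone H3 at lysine 27. Nkx2-2 and Nkx6-1 pattern the ventral neural tube under Sonic hedgehog and later act in the endocrine pancreas. Nkx2-1 directs thyroid, lung and ventral forebrain, Nkx2-5 the heart, Nkx2-3 the spleen and gut mesenchyme, and Nkx3-2 the sclerotome and cartilage.

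Poly-A RNA from 8 tumors was sequenced. The 5 PRC2 wildtype tumors carried Plp-CreERT together with Nf1(f/f) and with Cdkn2a(f/f), and the 3 PRC2 loss tumors had Eed(f/f), the floxed gene of a core PRC2 subunit, in addition. Tamoxifen (0.4 mg, given from day 0 to day 3 of life) activated the recombinase in every mouse, so that both groups had lost Nf1, a brake on Ras, and Cdkn2a, a cell cycle inhibitor locus, in cells with Plp-driven Cre. Host cells without recombination keep PRC2 and contribute RNA to a bulk tumor, and fewer cells of a type cannot be told apart from less RNA per cell. The site of PRC2 loss tumor 1 was a paraspinal nerve on the right, and tumors 2 and 3 grew on the sciatic nerves of the left and the right side, with 1 animal code for both; wildtype tumors 1 and 2 share a code, as do 3 and 4. There are thus 3 wildtype and 2 PRC2 loss codes, and if a shared code is a shared mouse the p-values, which treat all 8 tumors as independent, are too small.

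The values are quantile-normalized log2 gene counts, and sequencing depth is unknown. A value of 0 is the floor of the table. The number of genes at the floor ran from 2686 to 3372 over the wildtype tumors and from 1822 to 2113 over the PRC2 loss tumors. Eed fell by 1.36 on the log2 scale (SE 0.115, limma adjusted p = 0.00021), with no overlap between groups. Schwann cell markers were present in every tumor, and 9 of 11 rose, with summed log2 levels of 78.8 to 119.7 in wildtype and 142.4 to 150.6 in PRC2 loss. Of the 12 skeletal muscle markers none passed, but their summed log2 level was 134 and 127 in wildtype tumors 1 and 2, between 35.0 and 56.5 in the other wildtype tumors, and 40.2, 58.9 and 93.0 in PRC2 loss tumors 1 to 3. The contrast of PRC2 loss with wildtype called 3337 genes higher (16%) and 4087 lower (19.6%) of 20807 tested. Centring each tumor on 15 housekeeping genes, of which 9 fell, turned that split to 7464 higher and 1705 lower.

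Start regions of the members are shown first, because PRC2 is known to occupy CG-rich starts of silent developmental genes. All 6 matched a RefSeq start window of 300 bases (build GRCm38.p6). The 250 bases upstream of the start are printed 5′ to 3′ on the strand of the gene, with CG dinucleotides in capitals, for the member that rose most, a second one that rose, and the one with a lower mean.
Nkx2-3, chr19:43612075-43612324, plus strand: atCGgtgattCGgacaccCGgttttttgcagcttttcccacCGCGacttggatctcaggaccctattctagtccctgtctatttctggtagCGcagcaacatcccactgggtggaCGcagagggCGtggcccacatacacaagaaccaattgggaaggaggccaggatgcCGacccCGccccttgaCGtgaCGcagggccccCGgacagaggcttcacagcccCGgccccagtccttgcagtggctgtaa
Nkx6-1, chr5:101664712-101664961, minus strand: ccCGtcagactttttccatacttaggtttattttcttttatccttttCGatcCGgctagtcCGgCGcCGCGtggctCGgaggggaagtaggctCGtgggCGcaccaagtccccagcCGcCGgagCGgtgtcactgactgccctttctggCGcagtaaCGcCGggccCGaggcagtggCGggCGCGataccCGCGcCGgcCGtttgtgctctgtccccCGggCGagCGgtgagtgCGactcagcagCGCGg
Nkx3-2, chr5:41764221-41764470, minus strand: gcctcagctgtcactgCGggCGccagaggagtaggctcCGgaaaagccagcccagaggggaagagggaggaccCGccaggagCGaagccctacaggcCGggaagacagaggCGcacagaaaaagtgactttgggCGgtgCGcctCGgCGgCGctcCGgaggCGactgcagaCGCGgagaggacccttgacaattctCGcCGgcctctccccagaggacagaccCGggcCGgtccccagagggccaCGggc
The number of CG dinucleotides did not sort the members by direction. The full window held 40 in Nkx6-1, 25 in Nkx3-2, 17 in Nkx2-2, 15 in Nkx2-3, 12 in Nkx2-1 and 9 in Nkx2-5. Over the windows of 16197 tested genes, 1 per gene, the median was 16, with quartiles of 6 and 26. Nkx6-1 lay high in that distribution, with fewer CG in 94.3% of windows, whereas Nkx2-3 lay near the middle (45.8%). Windows of genes called higher had a median of 16 and those of genes called lower a median of 19.

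The letters CAAGTG are a core sequence bound by NK2-class factors and are also a form of the E-box CANNTG. They were searched on both strands and were found in 1 of the 6 members' windows, that of Nkx2-2, against 12.1% of all windows. The match is in capitals in the upstream sequence below, where it reads on the opposite strand.
Nkx2-2, chr2:147186403-147186652, minus strand: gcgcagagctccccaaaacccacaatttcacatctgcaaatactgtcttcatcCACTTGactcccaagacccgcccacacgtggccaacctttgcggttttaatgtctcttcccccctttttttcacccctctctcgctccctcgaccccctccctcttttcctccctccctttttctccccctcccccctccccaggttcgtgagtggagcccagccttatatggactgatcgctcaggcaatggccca
TATAAA on either strand was found in 0 of the 6 windows and in 9.70% of all windows. For Nkx2-2 the first base of the GENCODE M21 gene model lies 7841 bases farther upstream than this RefSeq start, and for Nkx2-5 3444 bases. For Nkx6-1 it lies 285 bases and for Nkx3-2 281 bases farther upstream. These windows therefore describe 1 start among several. The sequences printed for Nkx2-2, Nkx6-1 and Nkx3-2 lie inside the GENCODE gene model.

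Among the organ patterning members, Nkx2-3 showed the widest difference. Nkx2-3 (ENSMUSG00000044220, chromosome 19, 43612325 to 43615892) was listed at 0 in all 5 wildtype tumors. Its values in PRC2 loss tumors 1 to 3 were 8.49, 9.43 and 9.63. All 3 PRC2 loss tumors were high and close together, and the groups did not overlap. The mean in PRC2 loss was 9.18 ± 0.61 (SD, n = 3), above the mean of 56.7% of all genes in that group. The log2 difference was 9.18 (SE 0.391, 95% interval 8.29 to 10.08, limma adjusted p = 2.03e-05). No fold is given, because wildtype was at the floor. Of 1198 genes listed at 0 in every wildtype tumor, Nkx2-3 had the highest mean in PRC2 loss.

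Nkx2-1, the thyroid, lung and forebrain regulator (ENSMUSG00000001496, chromosome 12, 56531958 to 56536908), was also at 0 in all 5 wildtype tumors. It was listed at 2.76, 2.80 and 6.67 in PRC2 loss tumors 1 to 3. Every PRC2 loss tumor was above every wildtype tumor, but tumors 1 and 2 were low and tumor 3 stood well above them. The mean was 4.08 ± 2.24 (SD, n = 3) and the log2 difference 4.08 (SE 0.829, 95% interval 2.18 to 5.97, limma adjusted p = 0.00664). Without PRC2 loss tumor 3 the difference was 2.78 (limma adjusted p = 0.000517). The call was lost with 16 added on the linear scale before the logarithm, where the difference was 1.22 (limma adjusted p = 0.101).

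Nkx2-5, the cardiac member (ENSMUSG00000015579, chromosome 17, 26838664 to 26845009), did not pass the test. It was at 0 in 4 wildtype tumors and at 1.18 in wildtype tumor 2, against 2.04, 5.56 and 0.33 in PRC2 loss tumors 1 to 3. Only PRC2 loss tumor 2 was clearly high, and PRC2 loss tumor 3 lay below wildtype tumor 2. The log2 difference was 2.41 (SE 1.01, 95% interval 0.11 to 4.71, limma adjusted p = 0.0951). The call depended on the tumors kept and on the scaling: without PRC2 loss tumor 3 the difference was 3.56 (limma adjusted p = 0.026), and without tumor 2 it was 0.95 (limma adjusted p = 0.231).

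The neural patterning members Nkx6-1 and Nkx2-2 were at similar levels in all 3 PRC2 loss tumors. Nkx6-1 (ENSMUSG00000035187, chromosome 5, 101658139 to 101664996) was listed at 5.83, 5.82 and 5.37 in PRC2 loss tumors 1 to 3. In wildtype it was at 2.45 in tumor 3 and at 0 in the other 4. The groups did not overlap, and the PRC2 loss tumors spanned only 0.45 on the log2 scale. The mean was 5.67 ± 0.26 (SD, n = 3) against 0.49 ± 1.09 (SD, n = 5). The log2 difference was 5.19 (SE 0.622, 95% interval 3.76 to 6.61, limma adjusted p = 0.000768).

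Nkx2-2 (ENSMUSG00000027434, chromosome 2, 147177546 to 147194243) was listed at 6.73, 6.78 and 6.04 in PRC2 loss tumors 1 to 3. Wildtype tumors 1, 2, 4 and 5 were at 1.13, 1.18, 1.23 and 0, whereas wildtype tumor 3 was at 7.40, above every PRC2 loss tumor. The groups therefore overlapped through 1 wildtype tumor. With all tumors the log2 difference was 4.33 (SE 1.54, 95% interval 0.82 to 7.84), which missed the threshold (limma adjusted p = 0.0573). Without wildtype tumor 3 it was 5.63 (limma adjusted p = 0.000761). The same wildtype tumor held the only wildtype value of Nkx6-1 above 0.

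An antisense transcript, Nkx2-2os, overlaps Nkx2-2 over 10161 bases of its gene model, and strand use in counting is not given in the sources used here, so reads of this pair cannot be told apart. The same limit holds for a second antisense gene over Nkx2-2, 6430503K07Rik (984 bases), which did not pass, and for Gm26973, which overlaps Nkx2-1 over 1566 bases and was not analysed here. Nkx2-2os was at 5.37, 3.64 and 4.47 in PRC2 loss tumors 1 to 3, at 5.28 in wildtype tumor 3, at 1.23 in wildtype tumor 4 and at 0 in the other 3. It was thus high in the same 4 tumors as Nkx2-2. Its log2 difference was 3.19 (SE 1.22, limma adjusted p = 0.0739) with all tumors and 4.18 (limma adjusted p = 0.0025) without wildtype tumor 3.

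Nkx3-2, the sclerotome and cartilage member also known as Bapx1 (ENSMUSG00000049691, chromosome 5, 41761483 to 41764501), had the reverse pattern. It was the only member above 0 in every tumor. In wildtype tumors 1 to 5 it was listed at 4.64, 4.30, 8.28, 9.51 and 6.48. The values of PRC2 loss tumors 1 to 3 were 3.74, 4.33 and 3.57. The PRC2 loss tumors were low and close together, while wildtype ranged from values like theirs in tumors 1 and 2 to much higher ones in tumors 3 and 4. The log2 difference was -2.76 (SE 1.19, 95% interval -5.49 to -0.03) and did not pass (limma adjusted p = 0.105). Wildtype tumors 1 and 2, which share an animal code, are the pair with high skeletal muscle markers. They also had the highest summed Schwann cell markers in wildtype, 116.4 and 119.7, against 78.8 to 93.7 in the other wildtype tumors. Without both tumors, a fit added after seeing the data, the difference was -4.21 (limma adjusted p = 0.00759). Without tumor 2 alone it was -3.35 (limma adjusted p = 0.0463). The part of muscle RNA, Schwann cell content or animal code in this difference was not tested.

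**Figure D1:**
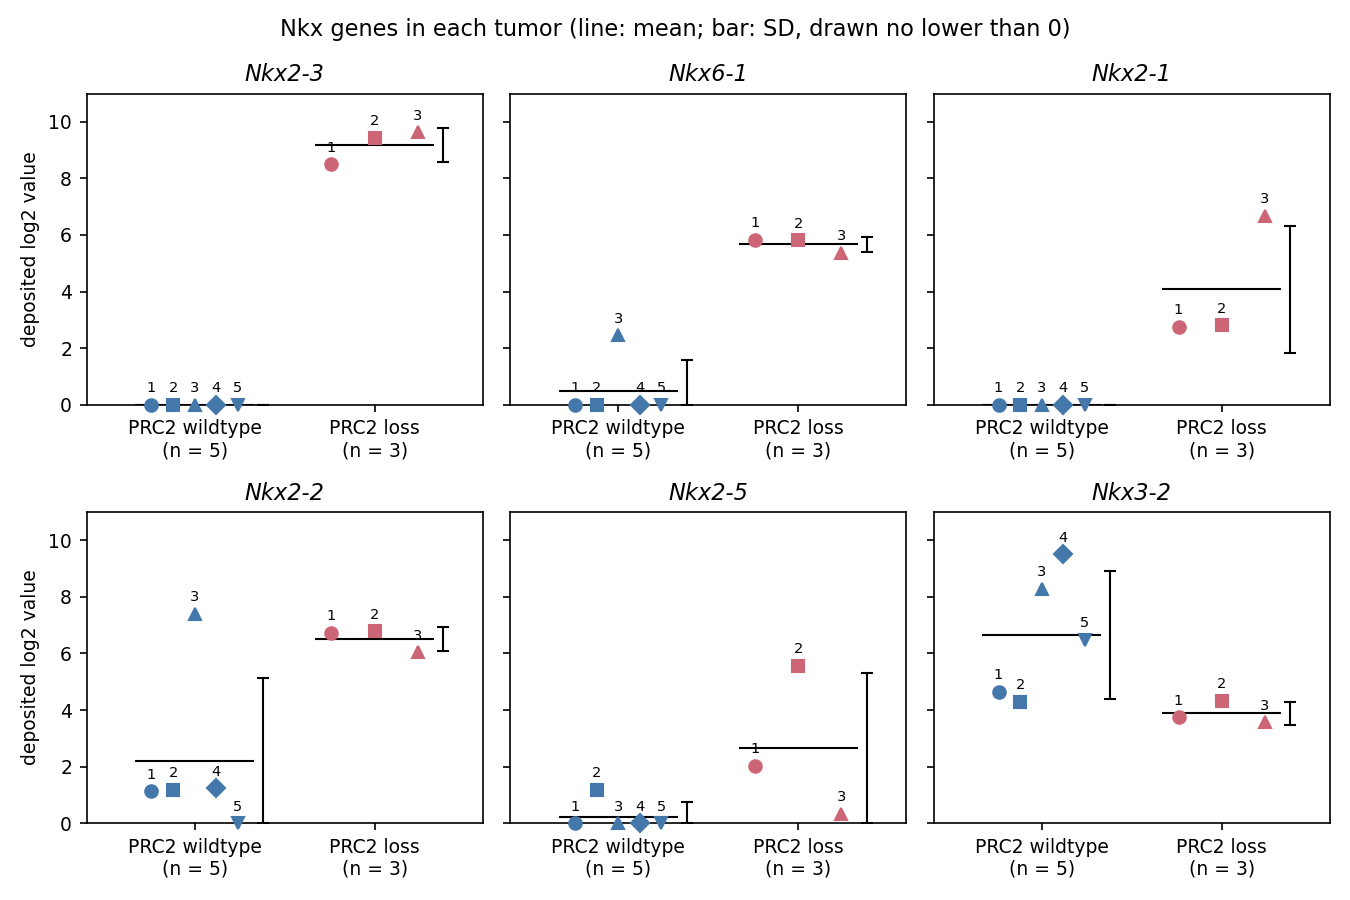
Deposited log2 values (vertical axis) of the 6 Nkx genes in 5 PRC2 wildtype tumors (blue) and 3 PRC2 loss tumors (red), numbered by replicate, with the group mean as a line and the SD as a bar. Nkx2-3 separated the groups most widely (0 against 8.49 to 9.63), and wildtype tumor 3 stood out for Nkx2-2 at 7.40.

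Read together, the 3 members called higher are 3 of 6, against 16% of all genes called higher, and none of the 6 was called lower, against 19.6% (35.7% were called in either direction). With housekeeping centring 5 members were called higher, all but Nkx3-2, against 35.9% of all genes called higher under that setting. The same 3 had groups that did not overlap, against 16.9% of all genes with PRC2 loss above wildtype, 21.4% with PRC2 loss below it and 38.3% in either direction. With the 2 groups reassigned in all 56 ways, a two-sided exact permutation test gave p = 0.0179 for Nkx2-3, Nkx2-1 and Nkx6-1, the smallest value this design allows. It gave exact p = 0.0357 for Nkx2-5, 0.107 for Nkx3-2 and 0.125 for Nkx2-2. The median difference of the 6 was 4.20 on the log2 scale, against -0.12 over all genes tested. These 6 were chosen with earlier results of these data known, so such shares and medians may reflect the choice. None of the 7 other Nkx genes in the table was called, and their median difference was 0.50.

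**Figure D2:**
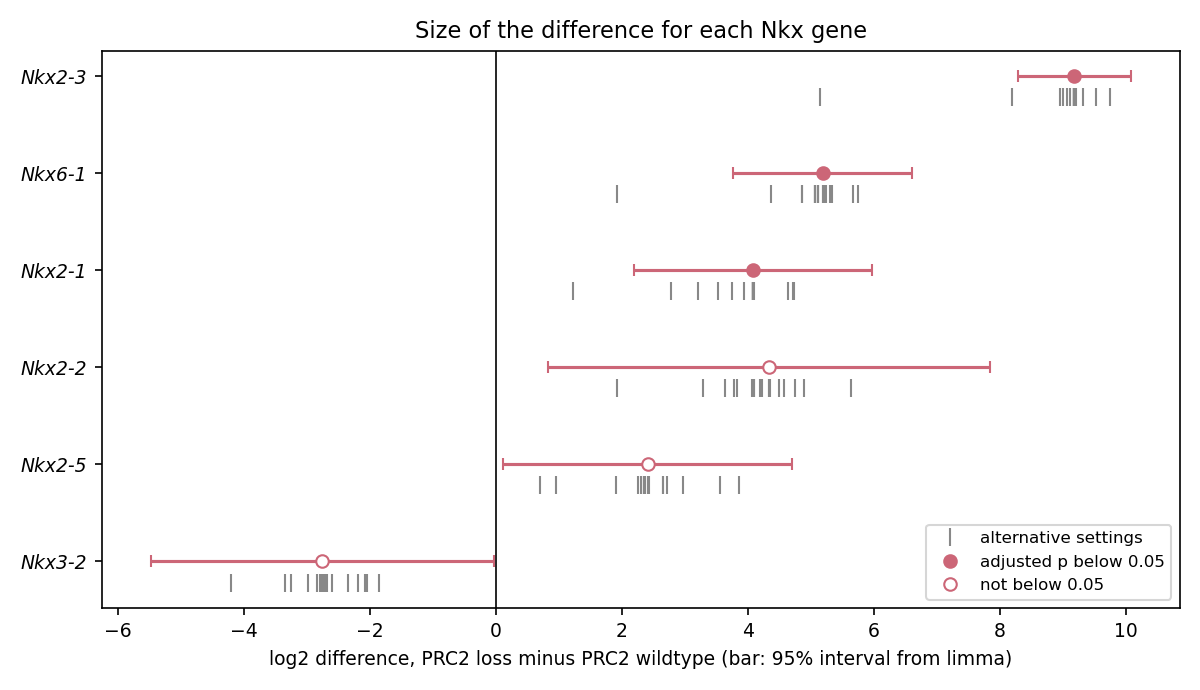
Log2 difference between PRC2 loss and PRC2 wildtype (horizontal axis) for each Nkx gene from limma with its 95% interval, filled where the adjusted p was below 0.05, and the estimates under each alternative setting as grey ticks. The intervals of Nkx2-2 (0.82 to 7.84) and Nkx2-5 (0.11 to 4.71) were wide, and no alternative changed the sign of any of the 6.

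To set levels of different members side by side, the log2 of exon length in kb was subtracted from each value. On this per-length log2 scale the order of mean level in PRC2 loss was Nkx2-3 (8.10), Nkx2-2 (4.99), Nkx6-1 (4.02), Nkx3-2 (3.10), Nkx2-1 (2.57) and Nkx2-5 (1.86). The ranges of Nkx2-3 (7.41 to 8.55), Nkx2-2 (4.51 to 5.26), Nkx6-1 (3.72 to 4.18) and Nkx3-2 (2.79 to 3.55) did not overlap each other. Nkx2-1 (1.25 to 5.16) and Nkx2-5 (-0.45 to 4.78) overlapped each other and each of Nkx2-2, Nkx6-1 and Nkx3-2, so their places in the order are not resolved. Of the 6, Nkx2-3 alone had a range apart from all the others. In wildtype the order was led by Nkx3-2, at 5.86 on the same scale, and the other members were at or near the floor in at least 4 of 5 tumors.

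Tumors of 1 animal code agreed for some members and not for others. PRC2 loss tumors 2 and 3, the sciatic pair, differed by 0.20 on the log2 scale for Nkx2-3 and 0.45 for Nkx6-1. They differed by 3.87 for Nkx2-1, higher in tumor 3, and by 5.23 for Nkx2-5, higher in tumor 2. Only 0.250% and 0.0529% of all genes differed more between this pair than Nkx2-1 and Nkx2-5 did, and the median absolute difference was 0.33. In the wildtype pair of tumors 3 and 4, Nkx2-2 differed by 6.17, with a larger difference in 0.0481% of genes. Nkx3-2 was high in both of these tumors and differed by 1.23. In the pair of wildtype tumors 1 and 2, Nkx3-2 differed by 0.34.

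The other Nkx genes stayed at or near the floor in both groups. Of 8 further family members listed, 7 were in the table, and none of them passed the test, although Nkx2-6, Nkx2-9 and Nkx6-3 did with housekeeping centring. In PRC2 loss tumors 1 to 3, Nkx2-9, a ventral neural factor and neighbor of Nkx2-1, was at 0, 1.5 and 1.18, against 0 in all wildtype tumors (limma adjusted p = 0.06). Nkx2-4, Nkx2-6, Nkx6-2 and Nkx6-3 had group means below 0.8 in both groups, and Nkx1-2 was above 0 in 1 wildtype tumor, at 1.70, and nowhere in PRC2 loss. Of the 13 Nkx genes in the table, between 2 and 4 were above 0 in each wildtype tumor and 9, 10 and 10 in PRC2 loss tumors 1 to 3. Over all genes, 83.9% to 87.2% were above 0 in wildtype tumors and 89.9% to 91.3% in PRC2 loss tumors.

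Around each member, the 3 nearest protein-coding genes of the table on either side were examined. Of these 36 neighbors 6 rose and 7 fell, shares close to those over all genes (16% and 19.6%). The Nkx2-2 region had the most neighbors that rose, 3 of 6, in order of distance Pax1 at 168 kb, Kiz at 207 kb and Foxa2 at 849 kb. Pax1, a sclerotome factor, went from 3.55 ± 2.02 (SD, n = 5) to 11.24 ± 0.85 (SD, n = 3), and the log2 difference was 7.69 (limma adjusted p = 0.00147). Foxa2, the floor plate and endoderm forkhead factor, averaged 1.13 ± 1.15 and 6.25 ± 0.89, a difference of 5.12 (limma adjusted p = 0.00146). Kiz, a centrosome gene, rose by 0.60 (limma adjusted p = 0.0113). Nkx2-4, the closest coding neighbor of Nkx2-2 at 92.1 kb, did not pass (0.24 against 0.61, limma adjusted p = 0.496).

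The 6 neighbors of Nkx2-3 were mixed in direction: 3 fell, 2 rose and 1 did not pass. Those that fell were Got1, an aspartate aminotransferase, by 1.44 (limma adjusted p = 0.00154), Entpd7, a nucleotidase, by 1.66 (limma adjusted p = 0.0023), and Cox15, a heme A synthesis gene, by 0.56 (limma adjusted p = 0.0449). Cnnm1 rose by 3.15 (limma adjusted p = 0.00332) and Hpse2, a heparanase family gene, by 3.35 (limma adjusted p = 0.0296), and Slc25a28, the closest at 47.9 kb, did not pass. None of the 6 neighbors of Nkx2-1 passed, among them Pax9, at 8.10 in wildtype and 9.13 in PRC2 loss. Beside Nkx6-1, Gpat3 and Mrps18c fell and the other 4 did not pass. Beside Nkx2-5, Crebrf rose and Kifc5b, a kinesin gene, fell by 2.95, and beside Nkx3-2 only Clnk, 2885 kb away, passed; it fell by 3.44.

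**Figure D3:**
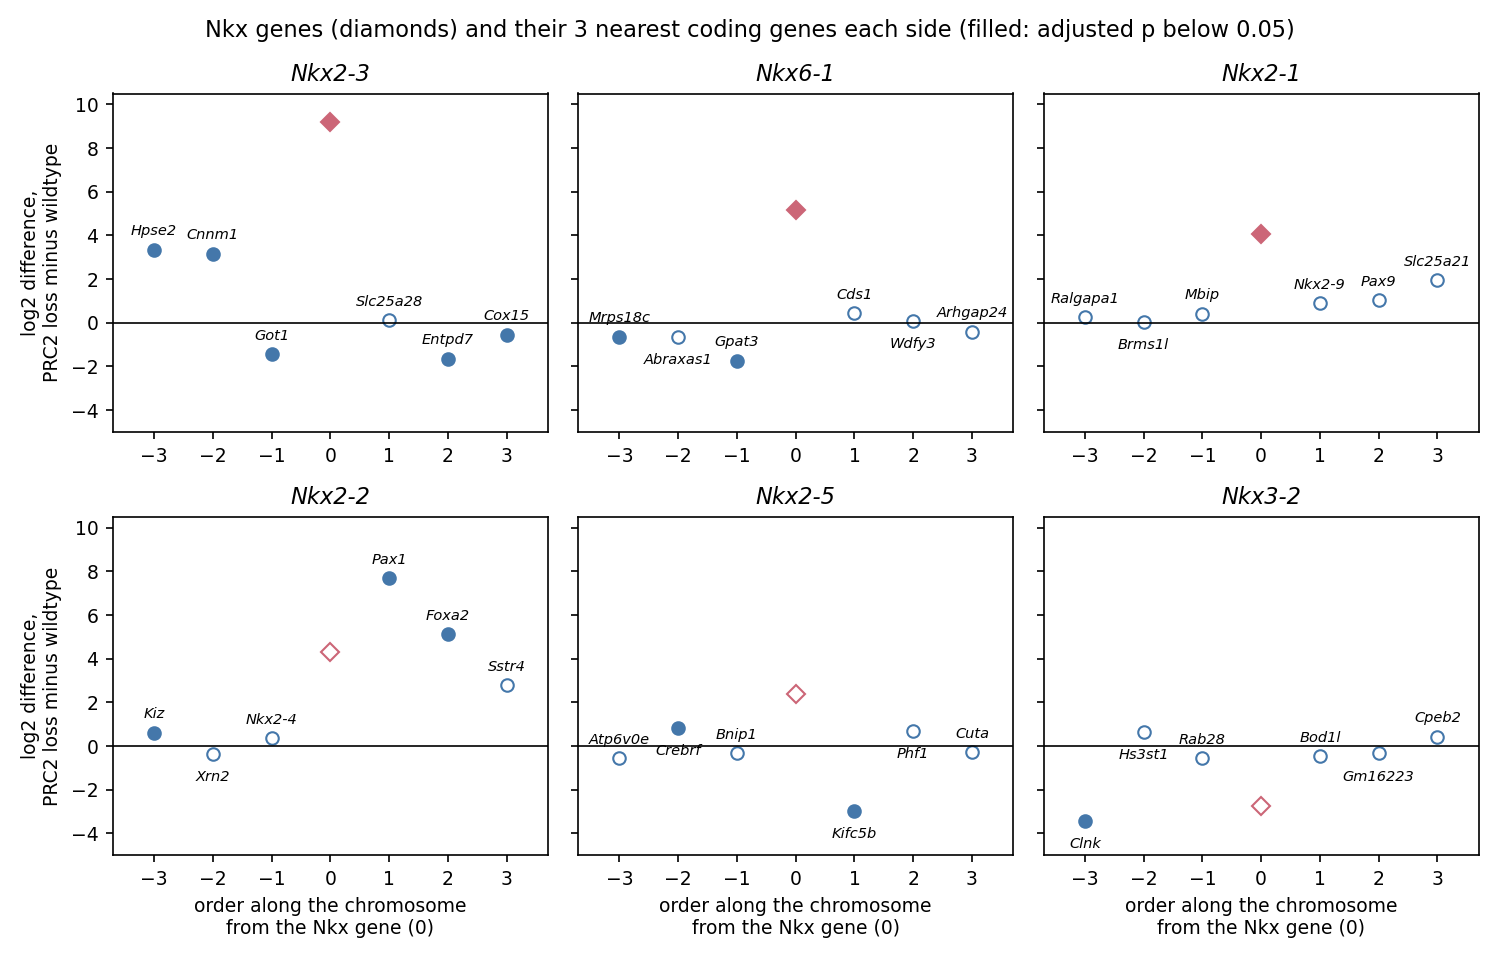
Log2 difference between PRC2 loss and PRC2 wildtype (vertical axis) of each Nkx gene (diamond at 0) and of its 3 nearest coding genes on either side in chromosome order (horizontal axis, in genes), filled where the limma adjusted p was below 0.05. Pax1 and Foxa2 beside Nkx2-2 rose by 7.69 and 5.12, and of the 6 neighbors of Nkx2-3 3 fell and 2 rose.

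The genes with the most similar profile to each member were found by the root mean square (RMS) distance between log2 values over the 8 tumors, each gene centred on its mean. For Nkx2-3 they were the homeobox gene Barx1 (distance 0.41), the RNA export factor gene Nxf3 (0.51) and Etnppl, a phospholyase gene (0.56), all at 0 in every wildtype tumor. For Nkx6-1 they were Cfap100 (0.52), the ovarian forkhead gene Foxl2 (0.54) and Xlr3a (0.58). For Nkx2-1 they included Sfta3-ps (0.56) and the olfactory receptor gene Olfr1029 (0.57).

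Some of these similar genes lie at the member itself. Sfta3-ps ends 2.5 kb from Nkx2-1 on chromosome 12 and was at 4.06, 3.68 and 6.08 in PRC2 loss tumors 1 to 3 and at 0 in all wildtype tumors. As with Nkx2-1, its highest value was in PRC2 loss tumor 3. The nearest profile to Nkx2-2 was that of its antisense partner Nkx2-2os (0.97), followed by Tsga13 (1.13) and the retinoic acid synthesis gene Aldh1a2 (1.26), and Aldh1a2 too had its highest wildtype value, 10.17, in wildtype tumor 3.

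Nkx2-5 was nearest to Cyct, the testis cytochrome c gene (0.57), and to the germ cell genes Adad1 (0.74) and Rnf17 (0.77). All 3 had their highest value in PRC2 loss tumor 2, at 4.74, 4.24 and 8.70. Nkx3-2 was nearest to Dlk2 (0.49), the granzyme gene Gzme (0.66) and the potassium channel gene Kcnj3 (0.67), each highest in wildtype tumor 4. Dlk2 was at 4.67, 3.79, 7.89, 8.74 and 6.49 in wildtype tumors 1 to 5, which is the order of Nkx3-2. With 8 tumors that share groups and animal codes, such closeness is a description only.

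Partner and target genes of the tissues that Nkx factors pattern were then counted, beside 16% of all genes called higher and 19.6% called lower. Of 14 ventral neural genes 8 rose and 1, Dbx2, fell (median log2 difference 2.20). Shh, the ligand that induces Nkx2-2 and Nkx6-1 in the neural tube, had values of 7.59, 9.12 and 5.73 in the PRC2 loss tumors and was at 0 in all wildtype tumors (limma adjusted p = 0.000253). Its receptor and target Ptch1 rose by 3.13 (SE 0.295, limma adjusted p = 0.000298), from 10.06 ± 0.43 (SD, n = 5) to 13.19 ± 0.51 (SD, n = 3). The oligodendrocyte lineage factor Olig1 rose by 2.47 (limma adjusted p = 0.00367), and was still low at 2.72 ± 0.77 (SD, n = 3). Pax6, which opposes Nkx2-2 at its neural tube border, did not pass, with 5.12 ± 4.01 (SD, n = 5) and 7.05 ± 0.47 (SD, n = 3), nor did Irx3. Of 9 central nervous system glial markers, 4 rose, Mag, Mobp, Gfap and Aspa, and 1 fell; their summed log2 level was 28.6 to 39.3 in wildtype and 46.5 to 52.2 in PRC2 loss, and Mog did not pass, at 1.32 and 2.16.

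Of 19 pancreatic endocrine genes listed 11 were in the table, and 1 of these, the insulin gene Ins2, was at 0 in every tumor. Those absent from the table were Neurod1, Neurog3, Pax4, Ins1, Sst, Iapp, Slc30a8 and Rfx6. Of the 10 tested 4 rose and 2 fell (median 1.39). Pdx1, which works beside Nkx6-1 in beta cells, was at 4.66, 3.68 and 4.43 in PRC2 loss tumors 1 to 3 and at the floor in wildtype (limma adjusted p = 9.34e-05). Gcg, the proglucagon gene, rose from 0.95 ± 0.90 (SD, n = 5) to 9.14 ± 0.75 (SD, n = 3), a difference of 8.18 (limma adjusted p = 0.000148). Insm1, an endocrine zinc finger factor, fell by 4.29 (limma adjusted p = 0.0016). Mafa, a beta cell factor, did not pass. The list's summed log2 level was 25.4 to 34.0 in wildtype and 41.4 to 43.6 in PRC2 loss.

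Of 16 thyroid and lung genes 5 rose and 1, Napsa, fell, with a median of 0.25. Foxe1, the thyroid forkhead factor, was at 0 in wildtype and averaged 4.79 ± 0.61 (SD, n = 3) in PRC2 loss (limma adjusted p = 9.16e-05). Slc5a5, the iodide transporter, rose by 3.55 (limma adjusted p = 0.0109) and Tg, thyroglobulin, by 2.74 (limma adjusted p = 0.0107). The lung surfactant gene Sftpa1 passed near the floor, at 0.96 ± 0.55 (SD, n = 3) against 0. Hhex and Tshr did not pass. The summed log2 level was 43.0 to 53.2 in wildtype and 53.6 to 59.9 in PRC2 loss.

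Of 20 cardiac genes 5 rose and 1, Nppb, fell (median 1.22). Gata4, the partner of Nkx2-5 at heart promoters, rose from 0.41 ± 0.92 (SD, n = 5) to 9.10 ± 0.20 (SD, n = 3), a difference of 8.69 (limma adjusted p = 8.66e-05). Hand2 rose by 6.10 (limma adjusted p = 0.000732), cardiac troponin T (Tnnt2) by 4.37 (limma adjusted p = 0.00123) and Gata5 by 1.32 (limma adjusted p = 0.00259). Gata4 was close to even over the PRC2 loss tumors (9.20, 9.23 and 8.87), unlike Nkx2-5. Mef2c and Gja5 did not pass. The summed log2 level was 69.2 to 88.1 in wildtype and 106 to 115 in PRC2 loss.

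Of 13 spleen and gut mesenchyme genes 7 rose and 1, the gut mesenchyme factor Foxl1, fell (median 2.39). Barx1, a stomach and spleen factor, had values of 9.13, 9.58 and 8.66 in PRC2 loss tumors 1 to 3 and was at the floor in wildtype (limma adjusted p = 1.85e-05). Tcf21, a mesenchymal factor of spleen and kidney, rose by 8.76 (limma adjusted p = 4.58e-05) and Foxf2 by 5.08 (limma adjusted p = 0.00217), while Foxf1 was at 9.80 and 9.77. Hoxa13 rose by 5.63 (limma adjusted p = 0.000126).

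Of 19 sclerotome and cartilage genes 6 rose and none fell (median 1.03), the opposite sign to Nkx3-2. Besides Pax1, the mesodermal factor Meox2 rose by 3.95 (limma adjusted p = 0.00458), the cartilage collagen gene Col11a2 by 3.73 (limma adjusted p = 0.000623) and Hapln1, a cartilage link protein gene, by 3.23 (limma adjusted p = 0.00673). Sox9, the main cartilage factor, was at 10.70 ± 0.98 (SD, n = 5) and 9.61 ± 1.10 (SD, n = 3), and it and Runx2 did not pass. Among 7 Groucho co-repressor genes and partners, Tle3 rose by 1.05 (limma adjusted p = 0.00434), Hdac1 fell by 0.38 (limma adjusted p = 0.0318), and the other 5, Tle5 and Tle2 among them, did not pass. Over all 7 the median was -0.14.

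**Figure D4:**
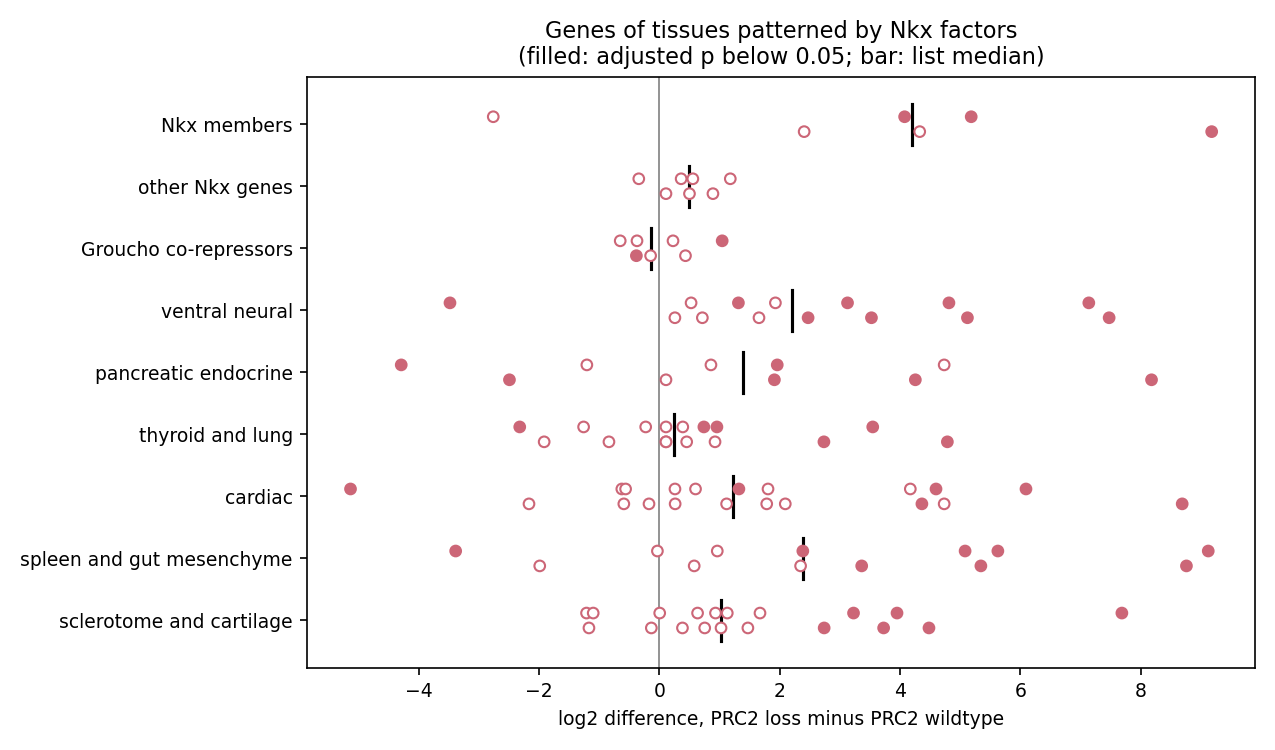
Log2 difference between PRC2 loss and PRC2 wildtype (horizontal axis) of each gene in the Nkx group and in 8 related gene lists, filled where the limma adjusted p was below 0.05, with the list median as a bar. The 6 members had a median of 4.20, the 7 other Nkx genes 0.50 and the ventral neural genes 2.20.

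Markers of other cell types a tumor sample may hold were counted as well, beside 16% of all genes called higher and 19.6% called lower. Of 8 endothelial markers 6 rose, with a summed log2 level of 80.4 to 87.0 in wildtype and 94.8 to 102 in PRC2 loss. Of 8 macrophage markers 5 fell, with sums of 94.3 to 103 and 85.6 to 90.1. Of 9 fibroblast and perineurial markers 4 rose, of 9 neuronal markers 2 rose and 2 fell, of 9 epithelial markers 2 rose and 3 fell, and of 8 adipocyte markers none passed. No marker of these cell types was at 0 in all 8 tumors. The part of these cell types in the Nkx values was not tested.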

How the data were processed

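RNA was extracted from each tumor with Trizol and made into TruSeq poly-A libraries, per the labels' protocols. Trim Galore, STAR 2.6, Partek 7.0 and the build mm10 are named, per the submitters' processing notes. Which annotation, counter and filter were used is not given in the sources used here. Quantile-normalized log2 gene counts were what the authors deposited, for 20943 genes in 8 tumors; the offset before the logarithm is not stated, and the values keep no library totals.

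Genes constant over the tumors (136) were left out. The other 20807 were fitted with limma 3.58.1 in R 4.3.3, PRC2 loss against wildtype, with empirical Bayes moderation, a variance trend and the same spread assumed in both groups. The two-sided p-values were adjusted by Benjamini-Hochberg over all genes, with a threshold of 0.05. The procedure was tested on simulated data with shifts placed only in genes at or above the median mean. Those data had no floor and independent tumors, and every member lies below that mean. How well shifts in genes like the members are found was therefore not tested. No pseudocount was added. Of the genes tested 9578 had an unadjusted p below 0.05.

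The members and gene lists were chosen with earlier results of these data known. Genes named are the members, the other Nkx genes, core PRC2 subunits, the 3 nearest coding genes on either side, the 3 nearest profiles (predicted genes and other members passed over), and from each list up to 4 past the threshold by smallest p and up to 2 others by highest mean. Other list genes, such as the single ones that fell, were named after their values were seen. A few genes that the rule names are not reported here. Positions and exon lengths came from GENCODE M21 (mm10) and start windows from RefSeq (GRCm38.p6). Protein sequences were not used here. Alternatives covered low genes, pseudocounts of 1 and 16, variance priors, array weights, 2 centrings, animal codes, the replicate number and each tumor left out.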

Additional observations from a re-analysis of the deposited data

Results flagged for a closer look

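In 3 of the 4 comparisons of a member over the 5 wildtype tumors, those in which the values were not all equal, 1 tumor stood far from the others by Dixon's criterion, which chance meets in about 1 group of 20; many ties at the floor make such a gap easier to reach. Nkx2-2 was at 7.40 in wildtype tumor 3, with the next value at 1.23. Nkx6-1 was at 2.45 in the same tumor and at 0 in the other 4. Nkx2-5 was at 1.18 in wildtype tumor 2 and at 0 in the other 4.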

How the results depend on the processing

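Under the 19 alternatives that kept the members in the fit, all 6 kept their direction, and Nkx2-3 and Nkx6-1 stayed past the threshold in each. Restricting the fit to genes above the median mean removes every member, so that setting gives no value for them; it left 1715 genes higher and 2533 lower. The calls for all genes were 7464 higher and 1705 lower with housekeeping centring, which moved the median difference of all genes by 0.565, and 2113 in each direction with animal codes averaged. With 16 added on the linear scale Nkx2-1 missed the threshold at 1.22. Housekeeping centring brought Nkx2-2 (4.89) and Nkx2-5 (2.97) past it, giving 5 members higher, and turned Nkx1-2, not called, to 0.22. Nkx2-5 also passed with array weights (3.85) and with animal codes averaged (2.30). Without the 2 wildtype tumors high in skeletal muscle genes, chosen after seeing the data, Nkx3-2 passed at -4.21, giving 1 member lower. The cause of these changes was not tested.

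Leaving out each tumor in turn gave differences of 2.78 to 4.74 for Nkx2-1, 3.78 to 5.63 for Nkx2-2, 0.95 to 3.56 for Nkx2-5 and -3.35 to -2.04 for Nkx3-2, with 0 to 1 members lower. The threshold was crossed by Nkx2-2 without wildtype tumor 3, by Nkx2-5 without PRC2 loss tumor 3 and by Nkx3-2 without wildtype tumor 2.

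The replicate numbers did not pair the tumors: the deviations of tumors with the same number correlated at -0.155, 0.0945 and -0.0482 for numbers 1 to 3, and 1 of 6 tumors correlated best with its own number. With the replicate block 1129 genes were higher and 774 lower, and Nkx2-1, at 4.08, missed the threshold (limma adjusted p = 0.0787). Depth is unknown, so how far a value at 0 excludes low expression cannot be given.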
